A study of Mus musculus with 4 samples.

Results

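Axon injury and regeneration markers are genes that adult sensory neurons switch on, or hold at a high level, when a peripheral axon is cut and regrows. The 10 described here, Atf3, Sprr1a, Flrt3, Csf1, Ecel1, Gadd45a, Gadd45b, Gadd45g, Klf6 and Klf7, were taken by symbol from the 41388 genes in the files, and each symbol matched 1 Ensembl gene. They were measured by RNA sequencing of EGFP-positive cells sorted from mouse dorsal root ganglia, in 2 pools described as coming from a P2 mouse (female A and male A) and 2 described as coming from an embryo (male B and male C). Every pool carries the stage label P2 (postnatal day 2), the strain label C57BL/6 and a Ret-EGFP reporter. The genotype label writes the reporter as a transgene, whereas the design text places EGFP in the Ret locus of heterozygotes, which would leave 1 intact Ret allele. The pool label of each library names 1 animal, with 40 ganglia (spinal levels T11 to S1) for female A and 20 for each male. These labels were taken as given, and whether 40 ganglia of these levels came from 1 animal was not checked. The label of the dissociation names a protocol for E18.5 in every case. No sample was labelled as injured, so the levels below are those of dissociated and sorted cells with no nerve lesion named.

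Axotomy disconnects the cell body from its target, and the neuron answers with a programme of transcription that is best known from adult rodent ganglia. Atf3, a basic leucine zipper factor that pairs with Jun, is the standard marker of that state. The Krüppel-like factors Klf6 and Klf7 favour axon growth in central neurons of rodents and fish, Sprr1a promotes outgrowth, Flrt3 is a cell surface protein, Csf1 is the cytokine through which injured neurons reach microglia, Ecel1 is a membrane metalloprotease, and the Gadd45 proteins are small stress-induced activators of a MAP kinase pathway.

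The libraries held between 17388493 and 28066448 gene counts, so 3 counts, the limit that a count of 0 allows, stood between 0.107 and 0.173 CPM (counts of a gene per 1000000 gene counts of its library). These limits cover counting error only. The 10 markers of sensory neurons were present in every library (summed CPM 8387 and 8012 in the P2-mouse pools, 13058 and 12251 in the embryo pools). They did not all follow that sum. In CPM, 6 were lower in both P2-mouse pools than in both embryo pools and 3 were higher. Of the 15568 genes tested below, 30.8% were lower and 42.5% higher in this way. Markers of other cells were present too. The 13 Schwann cell markers summed to 5176 and 8191 CPM in the P2-mouse pools and to 3359 and 3314 CPM in the embryo ones, and the 10 fibroblast markers to 1593 and 1747 CPM in the P2-mouse pools against 392 and 407 CPM in the embryo pools. The 9 markers of satellite glia summed to 2027 and 2361 CPM in the P2-mouse pools and to 1005 and 1401 CPM in the embryo pools. No marker on these lists was at 0 counts in any library. The macrophage markers (12 genes) gave sums of 5.77 and 13.2 CPM in the P2-mouse pools and of 5.25 and 4.86 CPM in the embryo pools, with 2 of the 12 at 0 counts in male B and 1 in male C. In such bulk samples, fewer cells of a type and less RNA per cell cannot be told apart.

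**Figure D1:**
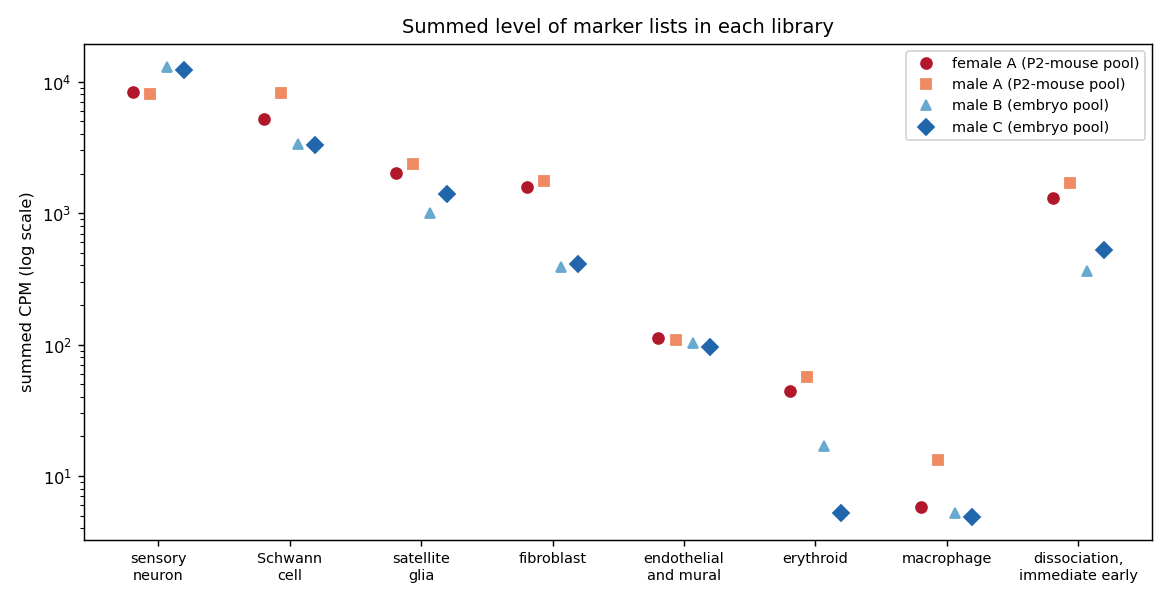
Summed CPM (log scale) of 7 cell type marker lists and of the list of dissociation-induced and immediate early genes in each library. The sensory neuron sum is lower in both P2-mouse pools than in both embryo pools, and the other 7 sums are higher, by little for endothelial and mural cells (112 and 108 CPM in the P2-mouse pools, 103 and 96.3 CPM in the embryo pools). Single genes of a list do not all follow its sum.

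Of the 10 genes, 8 had at least 52 counts in every library, Ecel1 had at most 2 counts and Sprr1a had none. Per kilobase of exon, which allows levels of different genes to be compared, Klf7 led with 80.1 ± 6.13 RPKM (CPM per kilobase; SD over 4 libraries), followed by Klf6 (49.1 ± 27.2), Flrt3 (20.5 ± 9.57), Atf3 (10.9 ± 8.99), Gadd45g (9.79 ± 1.91), Gadd45a (6.87 ± 1.52), Gadd45b (3.37 ± 1.32) and Csf1 (1.20 ± 0.551). Klf7 ranked 801st and Klf6 ranked 1309th of all genes in mean RPKM. Neighbours in this order overlapped in range from Klf7 down to Gadd45a. Klf7 stood above Klf6 in 3 of 4 libraries and Atf3 above Gadd45g in 2 of 4, while the ranges of Gadd45a and Gadd45b, of Gadd45b and Csf1 and of Csf1 and Ecel1 did not overlap. By CPM, which favours long transcripts, 4 of the 10 genes took another position.

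**Figure D2:**
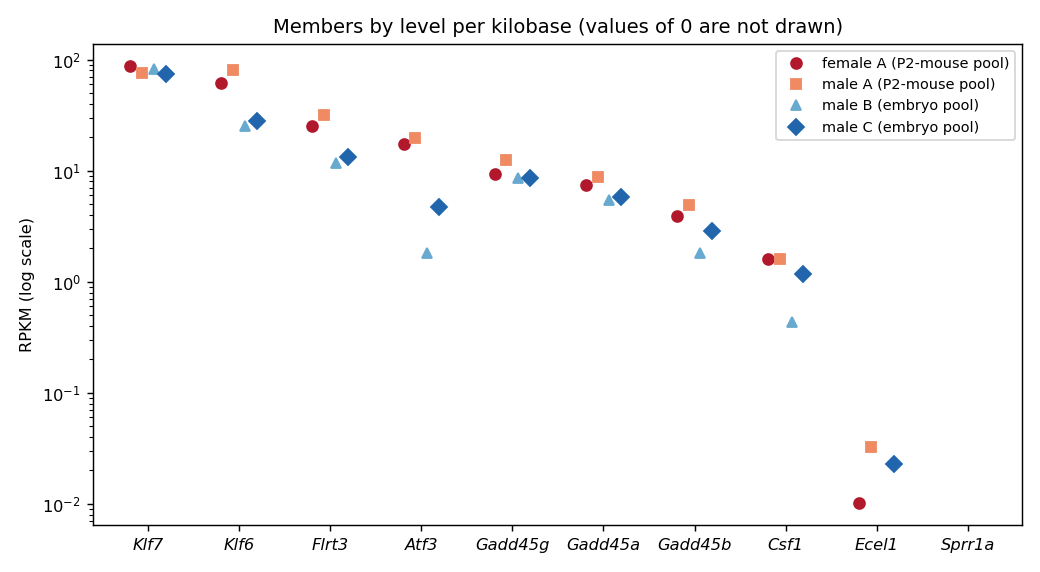
RPKM (log scale) of each gene in each of the 4 libraries, ordered by mean; points are single libraries and values of 0 are not drawn. Klf7 lies between 74.9 and 87.8 RPKM in all libraries, whereas Atf3 spans 1.80 to 19.8 RPKM.

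The markers fell into 3 behaviours between the pools. Atf3, Klf6 and Flrt3 were higher in the P2-mouse pools than in the embryo pools by 2- to 5-fold. Klf7, the most abundant, varied least, with a coefficient of variation of 7.66% over the 4 libraries, against 82.4% for Atf3. The other detected genes, Csf1 and the Gadd45 family, lay between these. Atf3, Klf6, Flrt3, Csf1, Gadd45a, Gadd45b and Gadd45g (7 of the 8 that passed the filter on low counts) had both P2-mouse pools above both embryo pools in CPM, as did 42.5% of the 15568 genes tested, and none had both below (30.8% of genes). These CPM are not scaled by the TMM factors of the tests (1.05 for female A, 1.03 for male A, 0.961 for male B and for male C). Divided by those factors, Gadd45g in female A falls below male C, so its pairs overlap. The edgeR quasi-likelihood test, adjusted by Benjamini-Hochberg, called 3 of the 8 higher and 0 lower (22.3% and 20.0% of all genes tested). The median log2 fold change of the 8 was 0.83, against 0.02 over all genes tested. The share called, 3 of 8, was near the 42.3% of all genes called in either direction, so the count by itself does not set the markers apart from other genes.

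**Figure D3:**
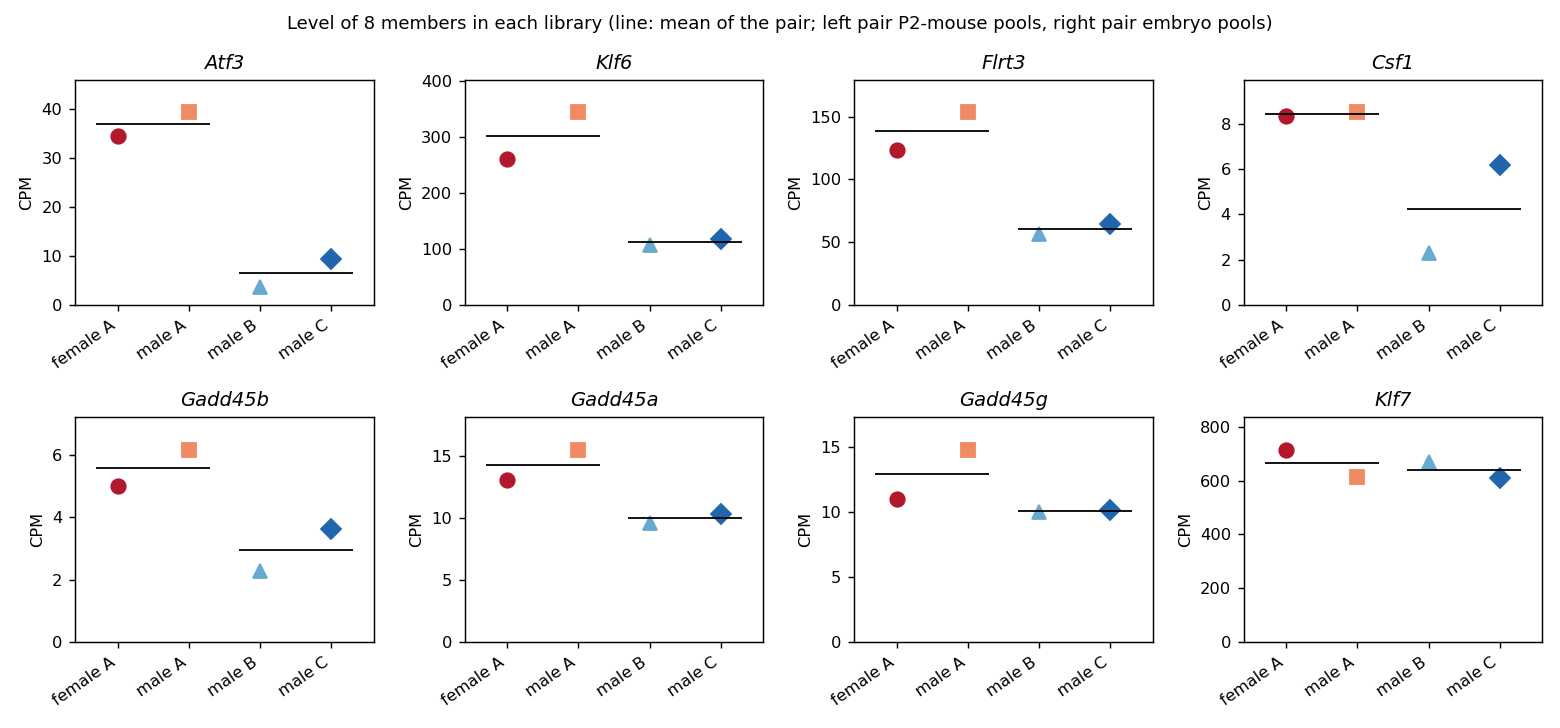
CPM of 8 genes in each library on axes that start at 0; the left pair in each panel are the P2-mouse pools, the right pair the embryo pools, and lines are the means of the pairs. In CPM, which is not scaled by the TMM factors of the tests, the pairs do not overlap except for Klf7. With that scaling those of Gadd45g overlap too.

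Atf3 (ENSMUSG00000026628, chromosome 1, 191170296 to 191183340, minus strand, GRCm38) had 34.5 and 39.2 CPM in the P2-mouse pools female A and male A, against 3.57 and 9.28 CPM in the embryo pools male B and male C. The P2-mouse libraries stood close together, while male C had more than male B, so the size of the difference depended on the embryo library. The log2 fold change was 2.40 (SE 0.37), a 5.27-fold higher level (edgeR adjusted p = 0.00182), and was 1.86 without male B and 3.21 without male C. Per kilobase, Atf3 stood at 2.35 and 2.25 times the level of Gadd45a in the P2-mouse pools and at 0.330 and 0.799 times that level in the embryo pools, so its place in the order of levels changed between the pairs.

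Klf6 (ENSMUSG00000000078, chromosome 13, 5861489 to 5870393, plus strand) had 261 and 343 CPM in the P2-mouse pools and 107 and 118 CPM in the embryo pools. The pairs did not overlap, male A was the highest, and each value rested on at least 2415 counts. The log2 fold change was 1.32 (SE 0.14), 2.49-fold higher (edgeR adjusted p = 0.000418). Klf7 (ENSMUSG00000025959, chromosome 1, 64029447 to 64122282, minus strand), its close relative, had 714 and 613 CPM in the P2-mouse pools and 668 and 609 CPM in the embryo pools. Its pairs overlapped, and its log2 fold change was -0.06 (SE 0.098, edgeR adjusted p = 0.665). Per kilobase, Klf6 stood at 0.705 and 1.08 times the level of Klf7 in the P2-mouse pools and at 0.307 and 0.373 times in the embryo pools.

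Flrt3 (ENSMUSG00000051379, chromosome 2, 140650914 to 140671469, minus strand), which binds Unc5 receptors and latrophilins and lies on the opposite strand within Macrod2 without sharing exon bases, had 123 and 153 CPM in the P2-mouse pools and 56.8 and 64.7 CPM in the embryo pools. Again the pairs did not overlap and male A was the highest. The log2 fold change was 1.07 (SE 0.14), 2.10-fold higher (edgeR adjusted p = 0.000817). With sex as a term, which sets male A alone against male B and male C, Atf3 (2.50), Klf6 (1.51) and Flrt3 (1.23) were again the 3 called, in a test that called 23.6% of all genes in either direction and 13.3% higher.

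The 250 bases before the RefSeq starts of these 3 genes, which moved together, and of Sprr1a, which is known to be induced with them after axotomy but was not detected, are shown here from RefSeq (GRCm38.p6), 5′ to 3′ on the strand of the gene. Capitals mark matches, on either strand, to an AP-1 motif (TGANTCA), to a motif of the cyclic AMP response element and ATF sites (TNACGTCA) and to a relative of it (TGACNTCA) that was added after the sequences were seen. The windows are chr1:191183334-191183583 (minus strand), chr13:5861239-5861488 (plus), chr2:140671477-140671726 (minus) and chr3:92485882-92486131 (minus).
Atf3: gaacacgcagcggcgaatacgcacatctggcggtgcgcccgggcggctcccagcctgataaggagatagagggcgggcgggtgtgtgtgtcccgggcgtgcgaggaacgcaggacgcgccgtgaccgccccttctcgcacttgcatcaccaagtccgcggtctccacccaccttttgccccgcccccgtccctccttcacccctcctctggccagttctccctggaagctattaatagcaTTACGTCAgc
Klf6: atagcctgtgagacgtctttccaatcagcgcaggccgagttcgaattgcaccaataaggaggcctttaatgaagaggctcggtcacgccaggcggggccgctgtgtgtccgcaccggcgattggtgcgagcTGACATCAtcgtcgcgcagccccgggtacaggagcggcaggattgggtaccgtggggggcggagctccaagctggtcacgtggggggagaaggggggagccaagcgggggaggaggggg
Flrt3: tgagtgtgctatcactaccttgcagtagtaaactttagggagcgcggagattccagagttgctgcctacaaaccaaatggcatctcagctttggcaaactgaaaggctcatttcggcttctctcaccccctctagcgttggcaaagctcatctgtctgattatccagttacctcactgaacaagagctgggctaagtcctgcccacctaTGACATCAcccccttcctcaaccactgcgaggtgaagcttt
Sprr1a: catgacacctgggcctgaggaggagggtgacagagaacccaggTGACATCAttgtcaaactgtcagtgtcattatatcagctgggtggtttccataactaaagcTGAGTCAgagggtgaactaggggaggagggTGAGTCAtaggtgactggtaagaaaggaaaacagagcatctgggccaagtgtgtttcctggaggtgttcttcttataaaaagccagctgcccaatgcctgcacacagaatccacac

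Atf3 held TTACGTCA at position -10 from its start, with the last 7 bases of the window inside an exon of the count files, and 1 of 10 windows and 2.52% of 32851 RefSeq windows matched TNACGTCA. Klf6 (at -119), Flrt3 (at -41) and Sprr1a (at -207) each held TGACATCA, and TGACNTCA matched these 3 of the 10 windows and 7.49% of all windows. As this motif was added after the sequences were seen, setting these shares side by side is no test of enrichment. Sprr1a alone among the 10 matched TGANTCA, at positions -146 and -116, as did 6.75% of all windows. Counted exons also reached into the windows of Ecel1 (165 of 250 bases), Klf7 (102), Gadd45a (50) and Sprr1a (14), so part of these windows is transcribed. GGGCGG, the GC box, was found on either strand in 6 of the 10 windows and in 32.7% of all windows. These matches are letters in a window, and no binding was measured.

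Sprr1a (ENSMUSG00000050359, chromosome 3), a precursor of the skin's cornified envelope that neurons express after nerve injury, had 0 counts in all 4 libraries, which allows up to 0.107 CPM for female A, 0.173 for male A, 0.132 for male B and 0.120 for male C. Of the 15 other genes of its family on the list, the most counts in any library were 2, for Sprr2a3 in male C. Ecel1 (ENSMUSG00000026247, chromosome 1), also known as the damage-induced neuronal endopeptidase, had 1 and 2 counts in the P2-mouse pools and 0 and 2 counts in the embryo pools. These are under the limit that a count of 0 allows, so no fold is given. Of its relatives, Mme, the gene of neprilysin, had 13.4 and 20.1 CPM in the P2-mouse pools and 4.76 and 4.26 CPM in the embryo pools (log2 fold change 1.77, SE 0.26, edgeR adjusted p = 0.00137, and 0.86 with the GC and length offsets), and Ece2 fell by 0.89 (SE 0.19, adjusted p = 0.00669, but not called with sex as a term or without male A). Ece1 had 45.5 and 44.3 CPM in the P2-mouse pools and 49.8 and 52.4 CPM in the embryo pools and did not pass (adjusted p = 0.0744).

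Csf1 (ENSMUSG00000014599, chromosome 3) had 8.37 and 8.51 CPM in the P2-mouse pools and 2.29 and 6.18 CPM in the embryo pools. Male B alone was far below the others, and the log2 fold change of 0.87 (SE 0.41) did not pass (edgeR adjusted p = 0.129). It was 1.72 and called without male C, and 0.32 without male B (adjusted p = 0.348). Il34, which encodes the other ligand of the same receptor, had 5.13 and 5.41 CPM in the P2-mouse pools and 4.94 and 4.70 CPM in the embryo pools. The receptor gene Csf1r had between 6 and 8 counts in each library, and Tyrobp, a myeloid adaptor gene, between 2 and 8.

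The Gadd45 genes were low, and Gadd45b stood at 0.420 and 0.386 times the RPKM of Gadd45g in the P2-mouse pools and at 0.213 and 0.330 times in the embryo pools. Gadd45b had 4.99 and 6.15 CPM in the P2-mouse pools and 2.29 and 3.61 CPM in the embryo pools (log2 fold change 0.79, SE 0.32, edgeR adjusted p = 0.0829). Gadd45a had 13.1 and 15.5 CPM in the P2-mouse pools against 9.62 and 10.3 CPM in the embryo pools (0.40, SE 0.19, adjusted p = 0.133), and Gadd45g had 11.0 and 14.8 CPM in the P2-mouse pools against 9.97 and 10.2 CPM in the embryo pools (0.24, SE 0.21, adjusted p = 0.406). In all 3 genes male A was the highest library and male B the lowest. Csf1 and Gadd45b (1.11) were called without male C, where 5 of the 8 markers and 42.3% of all genes passed, and also with no filter on low counts, where 29.8% of all genes passed. Gadd45a shares 337 exon bases with the antisense gene E230016M11Rik (130 to 301 counts), and Klf7 shares 3196 exon bases with the antisense gene Gm26649 (0 counts in each library). Whether strand was used in counting is not stated in the labels, so reads in these overlaps are uncertain.

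The calls depended on a correction for GC content and transcript length, applied together. With offsets for GC content and transcript length, 7 of the 8 tested genes were called, where 32.6% of all genes were (16.0% higher, 16.6% lower). Gadd45b (1.38, SE 0.31), Gadd45g (0.79, SE 0.23) and Gadd45a (0.70, SE 0.18) were then higher, Klf7 fell by 0.58 (SE 0.087), and Csf1 stood at 1.15 and was not called (adjusted p = 0.0663). Atf3 (2.78), Klf6 (0.88) and Flrt3 (0.66) were called as before. The median transcript of the genes tested had 49.3% GC and 3231.5 bases. Klf6 and Flrt3 have 42.4% and 42.2% GC over 4225 and 3977 bases, and Klf7 45.3% over 7662 bases. Gadd45a has 49.8% GC over 1223 bases, Gadd45b 56.9% over 1284 bases and Gadd45g 59.9% over 1071 bases. The parts of GC content and of length were not tested separately, nor was which fit is nearer to the cells' RNA.

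**Figure D4:**
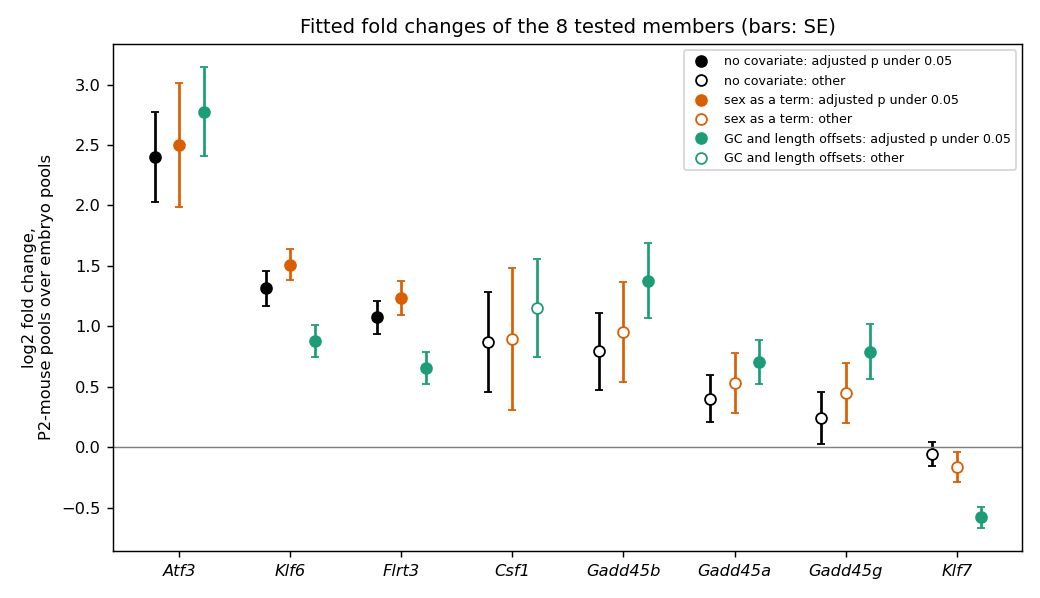
Log2 fold change of the P2-mouse pools over the embryo pools for the 8 tested genes, with SE bars, from the fit with no covariate, with sex as a term, and with offsets for GC content and transcript length; filled points have an edgeR adjusted p under 0.05. Atf3, Klf6 and Flrt3 are filled in all 3 fits, the Gadd45 genes and Klf7 with the offsets only.

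Possible partners of Atf3 differed by family. Of the 6 tested genes of the AP-1 family, whose products pair with ATF proteins, 5 rose and none fell (of all genes tested 22.3% rose and 20.0% fell), and Jund did not pass, with a median log2 fold change of 1.48 against 0.02 over all genes tested. Jun, the partner of Atf3 in regenerating neurons, had 73.2 and 76.0 CPM in the P2-mouse pools and 24.0 and 35.3 CPM in the embryo pools (log2 fold change 1.21, SE 0.18, edgeR adjusted p = 0.00160). Fosb rose by 3.10 (SE 0.26) and Fosl2 by 2.30 (SE 0.17). Junb rose by 1.37 (SE 0.42) and stood at 1.43 with sex as a term, where it was not called. Of the 10 tested ATF and CREB genes 5 rose and 2 fell (median 0.52), among them Creb1 at 1.02 and Creb3 at -0.95. With the GC and length offsets 2 rose and 1 fell: Creb1 (0.16, adjusted p = 0.297), Atf2 (0.0856, adjusted p = 0.474), Atf7 (0.11, adjusted p = 0.529) and Atf6b (-0.51, adjusted p = 0.196) were no longer called. With sex as a term 2 rose and 1 fell, where 13.3% of all genes rose and 23.6% were called in either direction.

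Most of the listed immediate early genes moved in the same direction, and cell dissociation is known to induce such genes. Of the 18 genes on this list, 15 rose and none fell (of all genes tested 22.3% rose and 20.0% fell), with a median of 1.62. Ier3 (-0.24), Hspa1a (0.81) and Hspa1b (0.28) did not pass. The list holds Jun, Junb, Fos, Fosb, Btg2, Socs3, Klf2 and Klf4 of the other gene lists and the Schwann cell marker Egr2 (3.13, SE 0.30). Its summed level was 1314 and 1707 CPM in the P2-mouse pools against 364 and 522 CPM in the embryo pools. Nr4a1 had 143 and 180 CPM in the P2-mouse pools and 18.8 and 35.4 CPM in the embryo pools (2.46, SE 0.28, edgeR adjusted p = 0.000459). Over the 4 libraries, the centred log2(CPM + 1) profiles nearest to that of Atf3 among 10419 genes with a mean of at least 5 CPM were those of Ogn, Nr4a1 and Egr1 (Euclidean distances 0.212, 0.263 and 0.312). Ogn encodes an extracellular matrix proteoglycan, and Nr4a1 and Egr1 are immediate early factors. As above, Schwann cell and fibroblast marker sums were also higher in the P2-mouse pools. Of their markers 10 of 13 and 6 of 10 were called higher, against 22.3% of all genes tested. The Schwann cell marker S100b was called lower (-1.52, SE 0.16). The sums of satellite glia were higher too, though their markers Fabp7 (-1.30) and Glul (-0.59) were called lower. The part of dissociation, Schwann cells, satellite glia or fibroblasts in the levels of Atf3, Klf6 and Flrt3 was not tested.

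More of the other Krüppel-like factors rose than fell, where 22.3% of all genes tested rose and 20.0% fell. Of 15 listed genes 12 were tested, 6 rose and 1 fell (median 0.75). In the fit with sex as a term 2 rose and 1 fell, where 13.3% of all genes rose and 23.6% were called in either direction. Klf4 and Klf9, which restrain axon growth in rodent central neurons, had 27.4 and 27.9 CPM and 44.1 and 49.1 CPM in the P2-mouse pools, against 8.91 and 7.51 CPM and 18.9 and 18.0 CPM in the embryo pools. Their log2 fold changes were 1.64 (SE 0.17) and 1.23 (SE 0.14), with edgeR adjusted p = 0.000372 and 0.000471. Klf13 fell to 565 and 474 CPM in the P2-mouse pools, against 920 and 867 CPM in the embryo pools (-0.90, SE 0.10, adjusted p = 0.000449). Per kilobase, Klf13 and Klf7 were the most abundant of the 17 family members in mean RPKM, and Klf6 ranked 4th in female A, male B and male C and 1st in male A. Klf10 did not pass (-0.05, SE 0.10, adjusted p = 0.717).

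Other genes of the injury programme did not share 1 direction. Of 26 listed genes 24 were tested, 5 rose and 5 fell, with a median of 0.10. These counts were near the shares of all genes tested (22.3% rose and 20.0% fell), so they do not set the list apart. Gap43, the growth-associated protein of axon terminals, fell to 1442 and 1338 CPM in the P2-mouse pools, against 1996 and 1791 CPM in the embryo pools (-0.56, SE 0.086, edgeR adjusted p = 0.00171). Gal, a neuropeptide gene that axotomy is known to raise, fell by 1.52 (SE 0.095), and Arg1 (-0.98) and Nts (-0.69) were lower too, though neither was called with sex as a term, without female A or without male A, nor Arg1 without male B. Socs3, an inhibitor of cytokine signalling, rose by 1.92 (SE 0.27), Sema6a by 0.99 (SE 0.24) and Cacna2d1, the calcium channel subunit gene raised in neuropathic pain models, by 0.88 (SE 0.098). With the GC and length offsets Cacna2d1 stood at 0.10 (adjusted p = 0.398), and Sema6a at 0.70 (adjusted p = 0.0610), neither of them called, nor was Arg1 (-0.83, adjusted p = 0.0734). Sema6a was also not called with sex as a term or without female A.

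Lists around the remaining markers held genes that rose and genes that fell. Of all genes tested 22.3% rose and 20.0% fell, so a mix of both does not set these lists apart. With the GC and length offsets 32.6% of all genes were called. Of the 15 tested p53 target and DNA damage genes, the setting in which Gadd45a was first described, 5 rose and 2 fell (median 0.32). They include the p53-induced gene Trp53inp1 at 2.06 (SE 0.17, and 1.33 with the GC and length offsets) and Plk2 at 1.00 (SE 0.099), while Bax, which promotes cell death, fell by 0.75 (SE 0.13). Of the 14 kinase genes around the Gadd45 proteins 5 rose and 3 fell (median -0.02), with the stress kinase genes Mapk8 at 0.78 and Mapk10 at -0.59. With the GC and length offsets 2 rose and 2 fell, and Mapk8 (0.07), Map2k4 (0.16), Map3k13 (0.49) and Mapk12 (-0.16) were not called. With sex as a term 2 rose and 2 fell, where 13.3% of all genes rose and 23.6% were called in either direction. Of the 11 integrated stress response genes 3 rose and 2 fell (median -0.29), with Ddit3 at -0.73 and Hspa9 at 1.31. Among 10 tested relatives and partners of Flrt3, Flrt2 (1.14), Adgrl3 (0.97) and Unc5d (0.71) rose and Adgrl1 (-0.46) fell. With the GC and length offsets Flrt2 (0.43), Unc5d (0.09), Hspa5 (0.28), Bax (-0.32) and Hspa9 (1.21) were not called. With sex as a term Unc5d, Ddit3 and Hspa9 were not called, nor were they without female A or without male A. Hspa9 was not called by DESeq2 either and stood at 0.72 without male B and 2.26 without male C, and Adgrl1 was not called without male A.

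**Figure D5:**
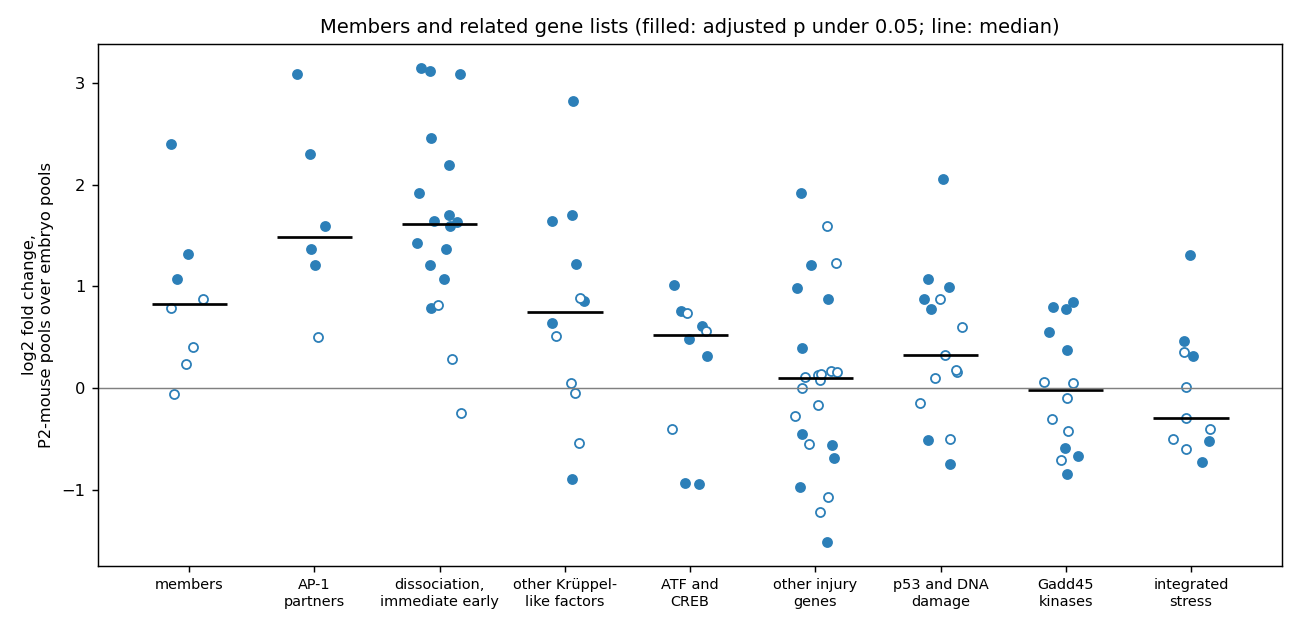
Log2 fold change of the P2-mouse pools over the embryo pools for the 8 tested markers (members) and for 8 related gene lists; each point is 1 tested gene, filled where the edgeR adjusted p is under 0.05, and lines are medians. The medians are 0.83 for the markers, 1.48 for AP-1 partners, 1.62 for dissociation-induced and immediate early genes and 0.10 for the other injury genes; genes held in several lists are drawn in each.

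The labels group the cells by sex. The female had 34.5 CPM of Atf3 and the males 39.2, 3.57 and 9.28 CPM, so the female lay inside the male range, as it did for every marker other than Klf7 (714 CPM in the female, 609 to 668 CPM in the males). Of all genes tested, 45.1% had the female outside the male range. By edgeR, 0 of the 8 tested markers and 0 of all 16708 genes (0.0%) were called, with 0 and 129 (0.772%) at an unadjusted p under 0.05. DESeq2 called 0 of the 8 and 5 of all genes (0.0299%), limma-voom 0 and 0. Atf3 had the largest log2 fold change of the 8, 0.95, with an SE of 1.1 (adjusted p = 0.951). With a single female library, the fit takes the spread from the males alone, and that spread holds the difference between the pools.

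Within the P2-mouse pools female A stood below male A in CPM for 7 of the 8 tested markers, the exception being Klf7, as for 48.2% of all genes tested. When the fit held a term for the pool description, which called 4 genes (0.0239%), the log2 fold changes of female over male were -0.41 for Klf6 (SE 0.16), -0.33 for Flrt3 (SE 0.17), -0.20 for Atf3 (SE 0.56) and 0.20 for Klf7 (SE 0.14), none of them called (edgeR adjusted p = 1 for all 4). The embryo pools held males only. This value therefore compares 1 library with 1. Without male A, 3 of the markers and 22.1% of all genes were called, but there the female is also the sole P2-mouse pool, and the effects of sex and pool cannot be told apart.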

How the data were processed

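RNA of sorted cells was amplified and sequenced as 4 libraries. The authors deposited read counts for each gene; the submitters' processing notes name featureCounts 1.4.5, Subread and GRCm38.p2. The CPM values that the authors deposited equal, as recomputed here, counts per 1000000 gene counts, and the deposited RPKM values are CPM per kilobase of exon length, per the file headers. The sources used here do not give the annotation release, the strand setting, or whether Subread, which includes an aligner, aligned the reads. A gene name table matched 40254 of 41388 gene IDs, and transcript sequences came from GENCODE M21.

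Genes kept by filterByExpr at a minimum count of 10 and a minimum total of 15 were scaled by TMM and tested by quasi-likelihood in edgeR 4.0.16 (R 4.3.3), and p-values were adjusted over all of them (Benjamini-Hochberg, threshold 0.05), for the P2-mouse over the embryo pools (15568 genes) and for female over male (16708 genes), with 2 residual degrees of freedom each. SE is the absolute log2 fold change divided by the root of F, so it uses the spread moderated across genes. With 2 libraries against 2, p-values measure only the spread between these samples. Alternatives were relative log expression factors, other filters, the other label as a term, DESeq2 1.42.0, limma-voom 3.58.1, edgeR's robust option, correction of GC content and length by offsets, taken from each gene's longest transcript (mgcv 1.9.3, fitted per library), and each library left out. The fit with sex as a term together with the offsets was chosen after seeing the data. The tests were also run on simulated counts drawn with the same spread for all genes, and their outcome is not given. For female over male these counts held no difference between pools, so they cannot show how that test behaves here. Total depth lay between 17388493 and 28066448 counts.

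The markers and gene lists were chosen with earlier results of these data known. List genes were named by rule: the 2 highest in mean RPKM and up to 4 per direction that passed with a mean of at least 5 CPM. Not all genes so named are printed. Csf1r, Tyrobp and the nearest profiles to Atf3 are given besides. Words of 50 bases of Atf3, Sprr1a, Flrt3, Csf1, Ecel1, Gadd45b, Gadd45g and Klf6 were in no other gene's transcripts.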

Additional observations from a re-analysis of the deposited data

How the results depend on the processing

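In the comparison of P2-mouse over embryo pools, Atf3, Klf6 and Flrt3 kept their direction and their call under every alternative. The number of markers called was 3, and 3 to 5 with a library left out, 5 with no filter on low counts, 7 with GC and length offsets. Over all genes the number called was 6584, and 3616 (without male A) to 6926 with a library left out, 3679 with sex as a term and 1587 with sex as a term and the offsets. Left-out libraries moved Klf7 between -0.168 and 0.0421, Klf10 between -0.17 and 0.0637 and Il34 between -0.0671 and 0.0669. Klf10 stood at 0.0592 with sex as a term and 0.0064 with the offsets added. Il34 stood at -0.00053 with relative log expression factors and -5.3e-05 with DESeq2. None of these was called. For the named genes of other lists, 111 values in all lost their call under an alternative, 17 of them with sex as a term and 17 with the offsets. Klf7, Gadd45a, Gadd45b and Gadd45g were called with the offsets, Klf7 alone of these with sex as a term added.

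For female over male, 0 genes were called, 2 with no filter on low counts, 4 with the pool description as a term, 5 with DESeq2 and 5 to 3616 with a male left out (the last without male A, where sex and pool description coincide and 3 markers were called, against 0 in the other fits). When a pool term was added the sign turned for Atf3 (-0.20), Flrt3 (-0.33), Csf1 (-0.0426), Gadd45a (-0.26), Gadd45b (-0.32) and Klf6 (-0.41). With the offsets it turned for Gadd45g (0.0537) and Klf7 (-0.29). A male left out moved Gadd45a between -0.0355 and 0.27, Gadd45b between -0.0200 and 0.63 and Gadd45g between -0.24 and 0.0105. The cause of these shifts was not tested. TMM scaling moved no marker's mean CPM over the 4 libraries by more than its SD. That SD holds the difference between the pools, so this cannot show how scaling shifts the pairs against each other. The factors were 1.05 (female A) and 1.03 (male A) in the P2-mouse pools and 0.961 in each embryo pool. No paired analysis was possible because the groups share only the replicate letter A. Ecel1 and Sprr1a are limited by depth.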
